A study of Homo sapiens with 80 samples.

Results

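The genes described here are 6 transcription factors of the primitive streak: TBXT, EOMES, MIXL1, GSC, LHX1 and EVX1. They were taken by symbol from the 43388 gene entries of each deposited TPM table, and all 6 were listed in both tables. The data are bulk RNA sequencing of human pluripotent stem cells differentiated towards cardiomyocytes, 80 libraries in 2 experiments. Every group received CHIR99021, an inhibitor of GSK3 that activates Wnt signalling, on day 0 at a dose set for each line (6 to 12 µM), and then IWP2, an inhibitor of Wnt secretion, at 5 µM. IWP2 was given on day 2 to WTC11 and on day 3 to H9 and IMR90-4. WTC11 and IMR90-4 are induced pluripotent stem cell lines and H9 is an embryonic stem cell line. Differentiations were classed as high or low purity by the share of cells with cardiac troponin T in flow cytometry at the end; those percentages were not analysed here.

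The multi-omic experiment holds 56 poly(A) libraries of WTC11 wells from day 0 (before induction), then every second day up to day 10, and days 13 and 16. Of these, 25 came from 1 high purity differentiation at passage 52 and 31 from 1 low purity differentiation at passage 69. Purity, passage and differentiation cannot be told apart there, and p-values measure only the spread between wells of 1 differentiation. The RNA-only experiment holds 24 total RNA libraries, 1 per line, class and stage: day 0, day 2 (WTC11) or 3 (H9, IMR90-4), day 4 or 5, and day 6 or 7. Passages of the high and low purity differentiations were 58 and 55 in H9, 55 and 75 in IMR90-4, and 81 and 69 in WTC11.

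The primitive streak is the site of the gastrulating embryo where epiblast cells turn into mesoderm and definitive endoderm under Wnt, Nodal and BMP signals. TBXT (brachyury) and EOMES are T-box factors that switch on mesoderm and endoderm genes. MIXL1 and GSC (goosecoid) are paired-like homeodomain factors, GSC marking the anterior streak and the organizer. LHX1 is a LIM homeodomain factor of the organizer and later of intermediate mesoderm, and EVX1 is a homeodomain factor of the posterior streak. In cardiac differentiation cells pass through a streak-like state before they turn on MESP1 and cardiac genes. In bulk RNA, fewer cells of such a state and less RNA per cell cannot be told apart.

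In GENCODE release 29 on GRCh38, MIXL1 lies on chromosome 1 (226223618 to 226227054, plus strand), EOMES on chromosome 3 (27715949 to 27722711, minus) and TBXT on chromosome 6 (166157656 to 166168700, minus). EVX1 lies on chromosome 7 (27242700 to 27250493, plus), GSC on chromosome 14 (94768216 to 94770230, minus) and LHX1 on chromosome 17 (36936785 to 36944612, plus). RefSeq promoter windows (GRCh38.p14, 250 bases before to 50 after a start) were matched by symbol for 5 of the 6 genes, in 6 windows. They were searched on both strands for CTTTGAT, a string bound by the TCF/LEF factors of the Wnt pathway, GGTGTGA (T-box), TAATCC (goosecoid-type homeodomain) and TAATTA (homeodomain). The only match in the 6 windows was CTTTGAT in MIXL1, with its first base at position -76 relative to the start. Of 35116 promoter windows in the table, 2.617% held CTTTGAT, 3.449% GGTGTGA, 6.362% TAATCC and 4.838% TAATTA. The parts of the windows upstream of the annotated gene are shown for MIXL1 and TBXT, the pair with the highest TPM on day 2, with the match in capitals. The MIXL1 stretch is chr1:226223414-226223617 (plus strand) and the TBXT stretch is chr6:166168701-166168905 (minus strand).
MIXL1: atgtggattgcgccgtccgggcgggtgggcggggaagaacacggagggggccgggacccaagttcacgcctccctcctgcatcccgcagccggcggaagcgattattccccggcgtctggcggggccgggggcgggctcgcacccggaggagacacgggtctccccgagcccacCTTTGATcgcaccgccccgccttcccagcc
TBXT: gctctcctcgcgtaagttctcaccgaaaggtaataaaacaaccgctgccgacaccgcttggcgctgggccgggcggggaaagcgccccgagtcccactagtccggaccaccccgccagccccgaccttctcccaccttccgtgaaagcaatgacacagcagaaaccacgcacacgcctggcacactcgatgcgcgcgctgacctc

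Reads per library ranged from 6579715 to 18143597 in the multi-omic and from 17990882 to 40357968 in the RNA-only experiment. High purity wells were deeper, with means of 12528308 against 7265249 reads on day 2 and 13888788 against 10438310 reads on day 4. The 6 pluripotency markers summed to 2149 to 2337 TPM in the wells labelled day 0 and to at most 581 TPM in all later wells. In the RNA-only libraries they summed to at least 1111 TPM on day 0 and at most 479 TPM afterwards. The low purity H9 differentiation stood apart on day 3, with EOMES at 2.65 TPM against at least 54.5 TPM in the other 5 libraries of that stage, so results are also given without H9 where it decides them. LHX1 reads were split between 2 entries, LHX1 and LHX1_1, so its level under either entry alone is uncertain. The other 5 genes had a single entry.

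All 6 genes were at or near 0 TPM before induction except MIXL1, and 5 of them were highest on day 2 in the WTC11 wells, at similar heights in both differentiations. TPM is scaled per gene length, so levels can be set side by side. From day 0 to day 2, 5 of the 6 genes rose in the high purity wells and 5 of 6 in the low purity wells (limma; 9.66% and 11% of all genes tested were called higher). A gene was called at an adjusted p under 0.05 and a log2 fold change of at least 1. The sixth, LHX1 under its own symbol, was at 0.72 and 0.77 on the log2(TPM + 1) scale, under the fold threshold, and with its 2 entries summed at 2.41 and 2.28. By mean level on day 2 the order in the high purity wells was TBXT, MIXL1, EOMES, GSC, EVX1 and LHX1. TBXT and MIXL1 overlapped there, while in the low purity wells every MIXL1 value lay above every TBXT value; the other neighbours in the order did not overlap. From day 2 to day 4, 5 of 6 genes fell past both thresholds in each differentiation (limma; 6.96% and 8.7% of all genes were called lower in the high and low purity wells). LHX1 under its own entry was at 0.88 in the high and -0.68 in the low purity wells on the log2 scale, under the fold threshold, and its summed entries were called in both, upwards in the high and downwards in the low purity wells. From day 4 to day 6, 5 of 6 were called lower in the high purity wells, all but EVX1. In the low purity wells 3 of 6 were called lower (TBXT, EOMES and GSC). By limma 3.44% and 2.74% of all genes were called lower. MIXL1 was at -1.03 in the high and -0.99 in the low purity wells, on either side of the fold threshold. EVX1 was at -0.16 and -0.79, under the threshold in both.

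**Figure D1:**
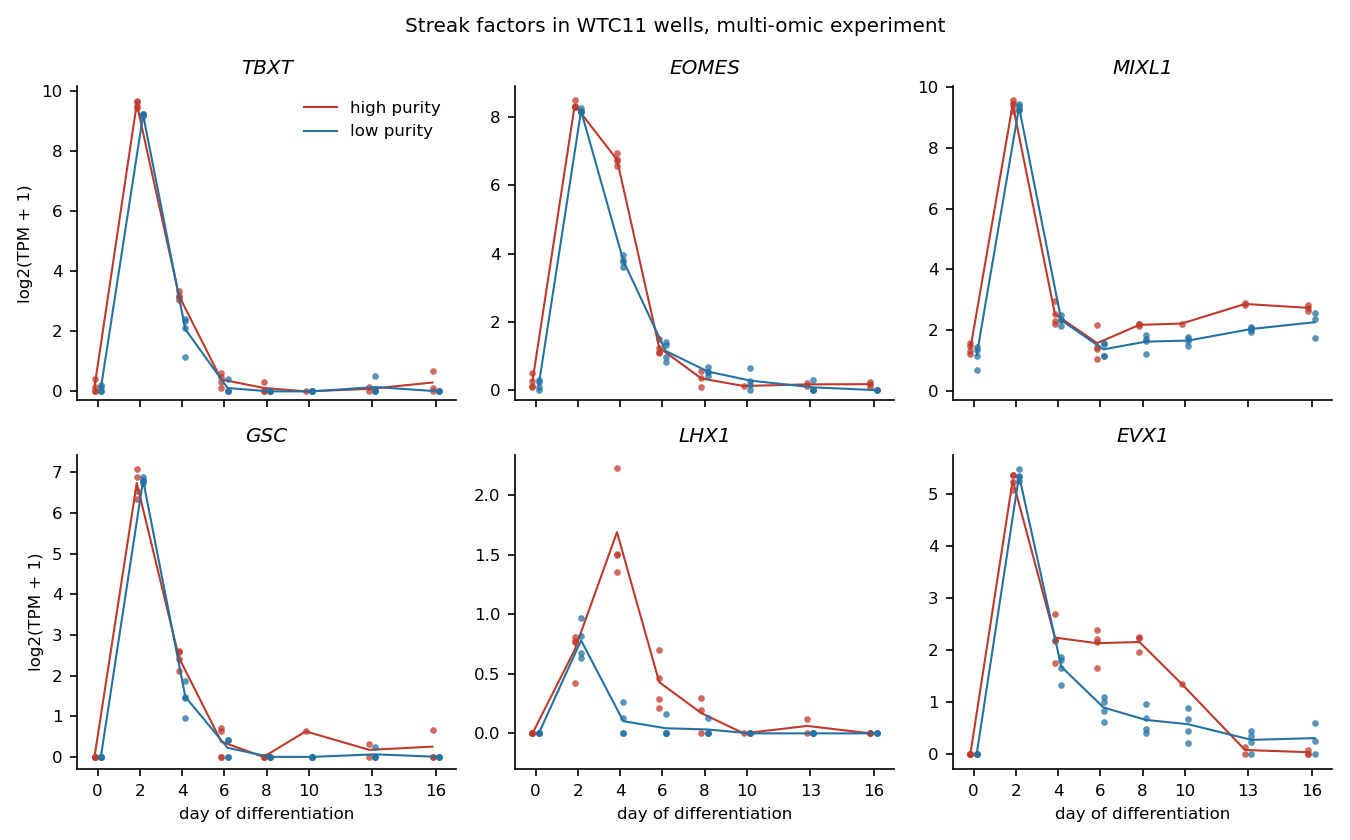
Levels of the 6 streak factors by day of differentiation in WTC11 wells of the multi-omic experiment, as log2(TPM + 1); points are wells, lines join the values of the group means, red is high and blue low purity, and LHX1 is shown under its own entry. TBXT, EOMES, MIXL1, GSC and EVX1 are highest on day 2 in both classes, LHX1 is highest on day 4 in the high purity wells, and EVX1 measures 2.89 to 3.76 TPM in high purity wells on day 8.

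TBXT, a regulator of mesoderm formation at the streak, was the highest of the 6 in the high purity wells and fell almost completely within the next 2 days. On day 2 it measured 729.5, 819, 795 and 688 TPM in the 4 high purity wells and 598, 575, 585 and 594 TPM in the 4 low purity wells. Every high purity well lay above every low purity well, but the difference (log2 0.43 ± 0.16 SE, limma adjusted p = 0.0297) was under the fold threshold. On day 0 no well held more than 5 TBXT reads, and the rise was 9.47 in the high and 9.09 in the low purity wells on the log2(TPM + 1) scale. By day 4 TBXT was down to 7.32, 8.03, 9.11 and 7.82 TPM in the high and to 3.30, 4.26, 4.01 and 1.20 TPM in the low purity wells. These are 1.07% ± 0.10 and 0.543% ± 0.237 of the day 2 mean (SD, n = 4 wells), and the groups did not overlap. The day 4 difference was called (log2 1.19 ± 0.16 SE, limma adjusted p = 4.5e-08), though without low purity well 4 it was 0.92, under the fold threshold. From day 6 on no well held more than 6 TBXT reads.

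EOMES, a T-box factor needed for both endoderm and cardiac mesoderm, fell more slowly after day 2 in the high than in the low purity wells. Its day 2 level was 322, 359, 315 and 311 TPM in the high and 309, 286, 282 and 287 TPM in the low purity wells, with no overlap but a difference of only 0.23 ± 0.12 SE on the log2 scale (limma adjusted p = 0.138). On day 4 EOMES still measured 108, 104, 122 and 94.99 TPM in the high purity wells, against 14.6, 11.1, 12.6 and 13.2 TPM in the low purity wells. High purity wells thus held 32.8% ± 3.47 of their day 2 mean and low purity wells 4.42% ± 0.494 (SD, n = 4 wells each). The day 4 difference was 2.97 ± 0.12 SE on the log2 scale (limma adjusted p = 8.1e-24), or 8.34-fold in mean TPM. This was the largest of the 6 on the log2(TPM + 1) scale, which understates low genes; the ratio of mean TPM was larger for LHX1 over both entries (16.0). By day 6 the groups overlapped, at 1.11 to 1.85 and 0.775 to 1.68 TPM. TBR1, a T-box paralogue of EOMES, was at 4.82 ± 1.29 TPM in the high and 0.106 ± 0.125 TPM in the low purity wells on day 4 (SD, n = 4; log2 2.33 ± 0.12 SE, limma adjusted p = 8.8e-21).

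MIXL1, a homeodomain factor induced by Nodal and BMP signals, showed no difference on day 2 or day 4 that passed the test. It stood at 668, 764, 707 and 588 TPM in the high and 693, 619.7, 605 and 656 TPM in the low purity wells on day 2 (log2 0.15 ± 0.17 SE, limma adjusted p = 0.549). From 1.67 ± 0.292 and 1.29 ± 0.480 TPM on day 0 (SD, n = 4), this was a 409-fold and a 499-fold rise. On day 4 MIXL1 was at 3.59, 3.99, 4.77 and 6.76 TPM in the high and 4.04, 4.67, 3.41 and 4.02 TPM in the low purity wells. That left 0.701% ± 0.207 and 0.627% ± 0.080 of the day 2 mean, and the groups overlapped. Afterwards MIXL1 was detected in every well of every day. It was lowest after the peak on day 6 (1.08 to 3.54 and 1.22 to 2.02 TPM). On day 13 it measured 6.43 and 6.15 TPM in the high and 2.88, 3.35, 3.05 and 3.22 TPM in the low purity wells, with no overlap. The difference had an adjusted p under 0.05 on days 8, 13 and 16 but was under the fold threshold, at 0.73 ± 0.18, 0.98 ± 0.20 and 0.71 ± 0.19 SE on the log2 scale (limma adjusted p = 7.6e-04, 1.2e-04 and 0.00225).

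GSC, the organizer gene, had 0 reads in all 8 wells on day 0. On day 2 it measured 80.7, 117, 135 and 91.6 TPM in the high and 118, 106, 111 and 112 TPM in the low purity wells, which overlapped; against a floor of 3 reads per library the rise was at least 188-fold and at least 121-fold. On day 4 it was at 3.32, 4.32, 5.01 and 5.04 TPM against 2.66, 1.80, 1.75 and 0.946 TPM, every high purity well above every low purity well. That is 4.17% ± 0.762 and 1.61% ± 0.627 of the day 2 mean (SD, n = 4). The day 4 difference of 0.98 ± 0.16 SE on the log2 scale (limma adjusted p = 2.3e-06) just missed the fold threshold. Without high purity well 1 (1.08) or without low purity well 1 (1.11) it passed. On day 8 GSC was at 0 reads in all 7 wells.

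LHX1 was highest 2 days later than the other genes in the high purity wells. Under its own entry it measured 0.343, 0.701, 0.748 and 0.715 TPM on day 2 and 1.55, 1.85, 3.69 and 1.82 TPM on day 4 in those wells. In the low purity wells it went the other way, from 0.596, 0.958, 0.552 and 0.767 TPM on day 2 to 0.0921, 0, 0.202 and 0 TPM on day 4. The 4 high purity wells of day 4 held 135 reads of this entry and the 4 low purity wells 3. The ratio was 31.9 after scaling for depth, with a 95% counting interval of 10.7 to 157. This interval pools the reads of each class and leaves out the spread between wells. High purity well 3 alone held 51 of the 135 reads. The difference on day 4 was called (log2 1.51 ± 0.11 SE, limma adjusted p = 5.8e-16) and was called without the highest well too (well 3; 1.34). LHX1-DT, a divergent transcript of the other strand whose span on chromosome 17 stops at 36936661, before LHX1 begins, was at 1.64 ± 0.554 TPM in the high purity wells of day 4 (SD, n = 4). In the low purity wells it held 3 reads in all on that day (limma log2 1.22 ± 0.13 SE, adjusted p = 6.4e-11).

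Most LHX1 reads of WTC11 were listed under the second entry. LHX1_1 held 82.97% of the 1345 reads of both entries in the multi-omic wells, 82.41% of 540 in RNA-only WTC11, 87.75% of 743 in H9 and 49.43% of 2286 in IMR90-4. Summed over both entries, LHX1 was at 3.00, 5.84, 4.43 and 4.11 TPM in the high purity wells on day 2 and at 10.2, 10.8, 19.1 and 8.95 TPM on day 4. The low purity wells were at 4.29, 4.43, 3.75 and 3.18 TPM on day 2 and at 0.736, 0.357, 1.31 and 0.656 TPM on day 4. The groups thus overlapped on day 2 and were far apart on day 4. The high purity wells rose by 1.18 ± 0.16 SE on the log2 scale between these days (limma adjusted p = 1.9e-08) and the low purity wells fell by 1.51 ± 0.16 SE (limma adjusted p = 2.6e-11). The difference between the classes was 0.16 ± 0.16 SE on day 2 (limma adjusted p = 0.485) and 2.85 ± 0.16 SE on day 4 (limma adjusted p = 1.7e-19). On day 6 the summed LHX1 was at 2.10, 1.43, 1.60 and 2.60 TPM against 0.564, 0.244, 0.103 and 0 TPM (log2 1.19 ± 0.16 SE, limma adjusted p = 2.7e-08), a call that its own entry did not reach (0.34 ± 0.11 SE). Summing the entries was chosen after the values were seen.

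**Figure D2:**
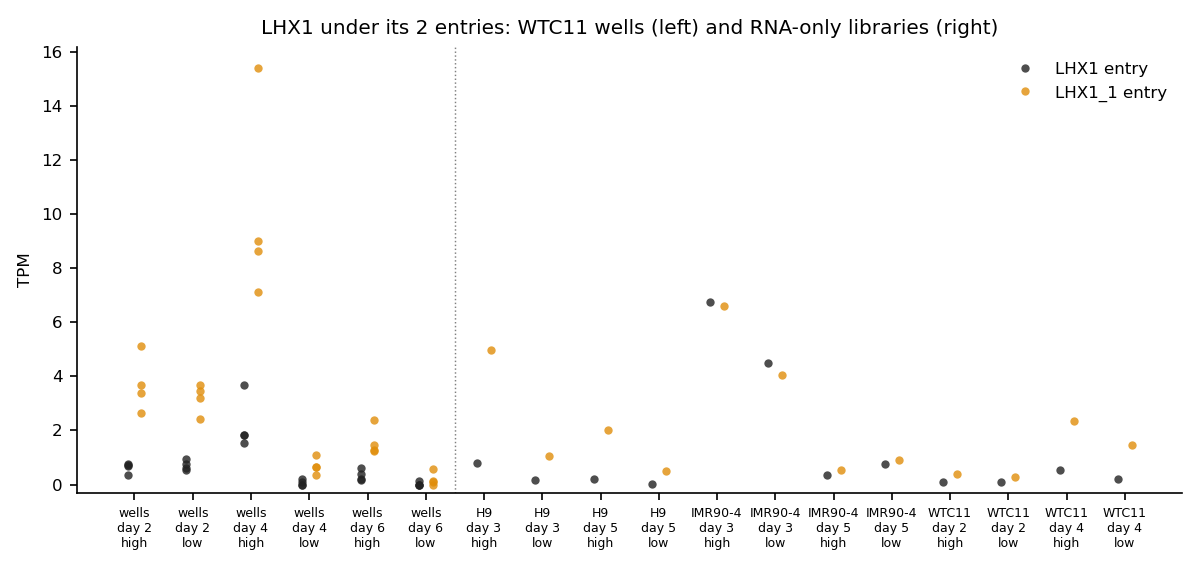
TPM of the LHX1 entry (black) and of the second entry LHX1_1 (orange) in WTC11 wells of the multi-omic experiment, 4 per group (left of the dotted line), and in RNA-only libraries, 1 per group (right). On day 4 the second entry reads 7.13 to 15.4 TPM in high purity wells, and in IMR90-4 on day 3 the 2 entries are nearly level.

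EVX1 overlapped between the differentiations on day 2 and then lasted longer in the high purity wells. On day 2 it measured 36.5, 40.4, 33.0 and 40.1 TPM in the high and 43.8, 39.0, 37.3 and 39.8 TPM in the low purity wells, from 0 reads in all 8 wells on day 0 (at least 178-fold and at least 115-fold over the floor). On day 4 it was at 3.55, 3.50, 5.40 and 2.36 TPM against 2.49, 2.13, 2.62 and 1.51 TPM, overlapping between the groups (log2 0.54 ± 0.15 SE, limma adjusted p = 0.00401, under the fold threshold). The high purity wells were then at about the same level on day 6 (4.24, 3.45, 2.14 and 3.63 TPM) and on day 8 (2.89, 3.66 and 3.76 TPM). The low purity wells were at 0.977, 0.528, 1.12 and 0.776 TPM on day 6 and at 0.311, 0.396, 0.948 and 0.612 TPM on day 8. There was no overlap on either day, and EVX1 was called higher on day 6 (log2 1.17 ± 0.15 SE, limma adjusted p = 1.9e-08) and on day 8 (1.64 ± 0.16 SE, limma adjusted p = 2.2e-11). As a share of the day 2 mean, 9.16% ± 1.26 was left on day 8 in the high (SD, n = 3) and 1.42% ± 0.710 in the low purity wells (SD, n = 4). On day 13 EVX1 was at or under 0.358 TPM in all 6 wells. EVX1-AS lies on the other strand of chromosome 7 (27241429 to 27247229) and overlaps EVX1; the strand setting of the counting is not given in the sources used here, so reads of this pair cannot be told apart. It was at 6.18 to 9.36 TPM against 2.16 to 5.10 TPM on day 4 and was called higher on day 6 (log2 1.65 ± 0.31 SE, limma adjusted p = 3.1e-05).

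Comparing the classes within a day, 0 of the 6 genes were called on day 0 and on day 2, where 1.07% and 5.32% of all genes tested were called. On day 2 TBXT alone had an unadjusted p under 0.05, on day 0 none had, and edgeR on the recovered reads also called 0 on both days. On day 4, 3 of 6 were called higher (TBXT, EOMES and LHX1) and 0 lower, where 3.62% of all genes were called higher and 4.22% lower. On days 6 and 8 the gene called was EVX1, 1 of 6 each time, against 3.61% and 4.66% of all genes called higher. On days 13 and 16, 0 of 6 were called by limma, against 10.8% and 13.4% of all genes in either direction. MIXL1 had an unadjusted p under 0.05 on both days. With edgeR on the recovered reads 1 and 3 of the 6 genes were called. The shares above are those of limma, and the edgeR shares of all genes on these days are not given here. Except for MIXL1, each gene held at most 10 reads over all wells of a class on these days. Whether the change from day 2 to day 4 was unequal in the 2 differentiations was tested directly. The difference was called for 3 of 6 genes, EOMES (2.73 ± 0.17 SE), LHX1 (1.56 ± 0.15 SE) and GSC (1.01 ± 0.23 SE), where 4.35% of all genes were called in this direction (limma adjusted p = 5.5e-17, 1.5e-11 and 4.2e-04). TBXT (0.75 ± 0.23 SE, limma adjusted p = 0.00829) and EVX1 (0.56 ± 0.21 SE, limma adjusted p = 0.0424) were under the fold threshold, and MIXL1 was at 0.03 ± 0.24 SE. The value for GSC was 0.86 to 0.99, under the fold threshold, without high purity day 2 well 1 or 4, high purity day 4 well 2, 3 or 4, low purity day 2 well 1 or low purity day 4 well 4.

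**Figure D3:**
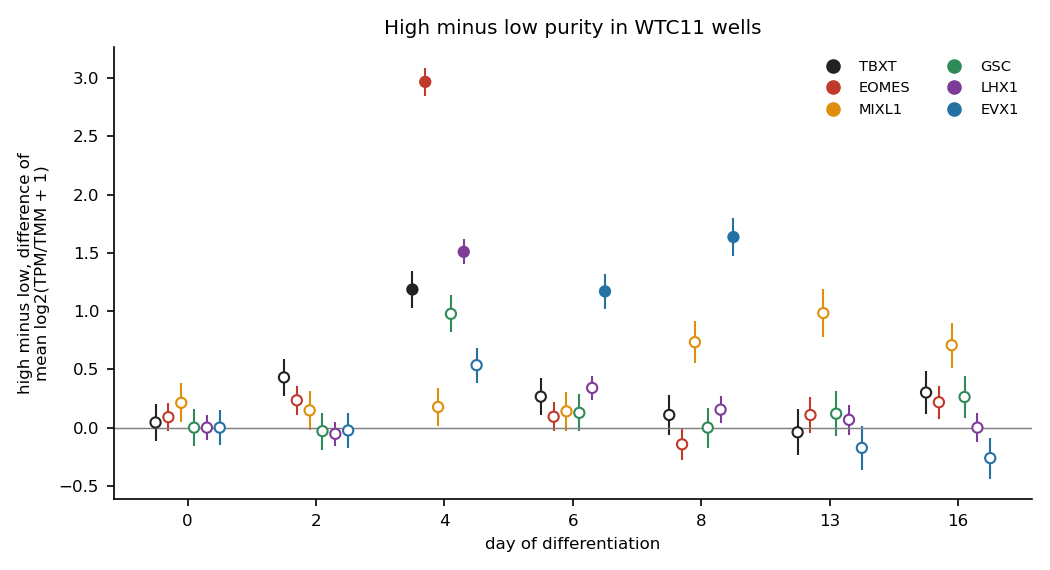
High minus low purity difference of the 6 genes by day in WTC11 wells, as the difference of mean log2(TPM/TMM + 1) with its standard error; filled points were called, and LHX1 is its own entry. The values lie between -0.05 and 0.43 on day 2 and between 0.18 (MIXL1) and 2.97 (EOMES) on day 4, and EVX1 is the one filled point on days 6 and 8.

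Other markers moved with the day 4 difference, and their part in it was not tested. The 5 cardiomyocyte markers (TNNT2, MYH6, NKX2-5, ACTN2 and RYR2) summed to 27.0 to 42.6 TPM in the high and 597 to 681 TPM in the low purity wells on day 4. On day 6 the ranges overlapped, at 1917 to 3883 and 1010 to 2123 TPM. The 6 endoderm markers summed to 228 to 252 against 112 to 127 TPM on day 4, and the 6 pluripotency markers to 289 to 371 against 154 to 170 TPM. None of these markers was at 0 in a well of day 4. On day 2, where the streak factors did not differ by the call, the sums were 141 to 198 against 120 to 125 TPM for endoderm and 547 to 581 against 305 to 330 TPM for pluripotency. The day 2 endoderm markers had no common direction. FOXA2 (98.4 against 41.9 TPM), HHEX and FOXA1 had higher means in the high purity wells, and CXCR4 (39.7 against 60.1 TPM), SOX17 and PRDM1 lower ones. Among the pluripotency markers ZFP42 was lower there (26.5 against 41.2 TPM). Neuroectoderm markers summed to at most 1.78 TPM in the 8 wells of day 4, with SOX1 or NEUROG2 at 0 in each.

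Genes that act around the streak factors were counted in lists, as limma log2 differences, high minus low, beside a median of 0 over all genes tested on both days. Of all genes tested, 2.25% were called higher and 3.07% lower on day 2, and 3.62% and 4.22% on day 4, and the counts of each list stand beside these shares. Of 15 tested signals of the streak, 3 were called higher and 1 lower on day 2, with a list median of 0.54. FGF8 (2.62), FGF4 (1.85) and NODAL (1.39), ligands of the streak, were higher, and the ligand BMP4 (-1.72) was lower. NODAL was at 278 ± 46.1 against 109 ± 5.97 TPM and BMP4 at 20.3 ± 5.64 against 70.6 ± 6.27 TPM (SD, n = 4). On day 4, 5 signals were higher and 1 lower (median 0.76). FGF17 (1.93), the Nodal co-receptor TDGF1 (1.83), FGF8 (1.63), CER1 (1.51) and WNT8A (1.49) were higher. NODAL was now lower (-2.46), at 11.3 ± 3.09 TPM in the high and 66.0 ± 9.68 TPM in the low purity wells.

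Of the 9 genes of nascent mesoderm, 1 was called higher on day 2 (KDR, 1.62) and 0 lower (median -0.23). On day 4, 3 were higher and 2 lower (median 0.48). MESP1 (2.35), the factor that starts the cardiac programme, TBX6 (1.47), a presomitic T-box factor, and SNAI1 (1.05) were higher, and APLNR (-1.52) and PDGFRA (-1.06), receptors of early mesoderm, were lower. MESP1 was at 5.62 ± 0.851 TPM in the high and 0.271 ± 0.214 TPM in the low purity wells on day 4, after 4.07 ± 0.920 and 6.02 ± 1.24 TPM on day 2 (SD, n = 4). Of the 8 endoderm genes, 2 were higher on day 2 (HHEX, 1.48, and FOXA2, 1.23; median 0.16) and 3 on day 4 (CXCR4, 1.65, SOX17, 1.44, and PRDM1, 1.05; median 0.86), with 0 lower. Of 6 caudal genes, 3 were higher on day 2 (FGF8, CDX4 at 1.83 and NKX1-2 at 1.39) and FGF8 alone on day 4, with 0 lower. Of the 5 node and notochord genes 0 were called on either day, and of 3 tested kidney genes WT1 was lower on day 4 (-1.25). BMP4, TDGF1, CER1, WNT8A, SNAI1, PDGFRA and PRDM1 are named because the counts were small, after their values were seen.

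The genes whose pattern over the 16 group means was most like each factor were found among 13366 candidates. These correlations describe means that share a time course and carry no test; r over the 24 RNA-only libraries is given second. TBXT and GSC were most like each other (Pearson r = 0.997 and 0.904), followed for TBXT by PPIAP46 (0.995 and 0.939), a pseudogene, and FGF17 (0.992 and 0.839), and for GSC by LOC105374277 (0.993 and 0.869) and PPIAP46 (0.991 and 0.95). EOMES was most like LOC107986155 (0.986 and 0.946), SEZ6L (0.978 and 0.855) and LOC107985866 (0.977 and 0.582). MIXL1 was most like MSGN1 (0.982 and 0.761), a presomitic mesoderm factor, MIR2054 (0.981 and 0.656) and C20orf85 (0.98 and 0.581). LHX1 was most like its second entry (0.973 and 0.813), LMLN2 (0.949 and 0.255) and WDR93 (0.941 and 0.801). EVX1 was most like EVX1-AS (0.986 and 0.973), SP5, a Wnt target (0.986 and 0.881), and SPAG6 (0.978 and 0.574). All values were lower over the RNA-only libraries, LMLN2 by the most. Between pairs of the 6 factors r over the group means ran from 0.457 (MIXL1 and LHX1) to 0.997.

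In the RNA-only experiment the genes again rose and fell, to heights that differed between the 6 differentiations. From day 0 to day 2 or 3, 6 of 6 genes were called higher over all lines and classes (edgeR; 13.3% of all genes tested were called higher). To day 4 or 5, 5 of 6 were called lower, all but LHX1 (edgeR; 3.17% of all genes), and without IMR90-4 or without WTC11 the call was left for 2, TBXT and MIXL1. From there to day 6 or 7, EOMES and TBXT were called lower, 2 of 6 (edgeR; 1.18% of all genes); the count was 5 without H9 and 0 without IMR90-4 or without WTC11. WTC11 was sampled on other days than H9 and IMR90-4, so line and sampling day cannot be told apart.

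**Figure D4:**
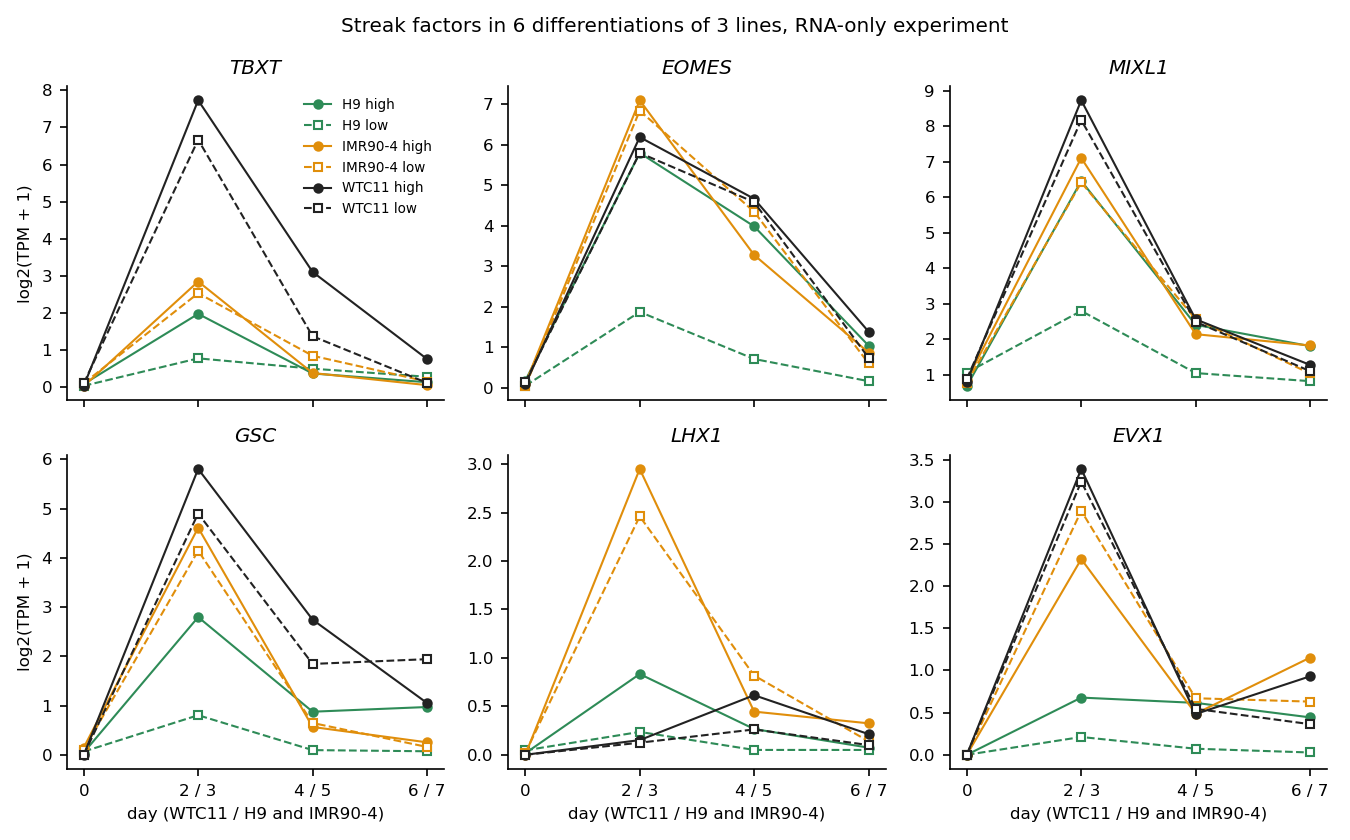
Levels of the 6 factors in the RNA-only libraries by stage, as log2(TPM + 1), 1 library per point; filled circles with full lines are high and open squares with dashed lines low purity, and LHX1 is its own entry. On day 2 or 3, TBXT is highest in WTC11 and EOMES in IMR90-4, and low purity H9 lies lowest for TBXT, EOMES, MIXL1, GSC and EVX1.

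TBXT measured 212 and 101 TPM in the high and low purity WTC11 differentiations on day 2, but on day 3 only 6.18 and 4.77 TPM in IMR90-4 and 2.92 and 0.708 TPM in H9. MIXL1 stood at 423 and 287 TPM in WTC11, 137 and 84.5 TPM in IMR90-4 and 87.1 and 5.98 TPM in H9. EOMES was at 71.7 and 54.5 TPM in WTC11, 136 and 113 TPM in IMR90-4 and 54.5 and 2.65 TPM in H9. TBXT and MIXL1 were thus highest in WTC11, and EOMES was highest in IMR90-4. GSC was at 54.9 and 28.9 TPM in WTC11, 23.4 and 16.7 TPM in IMR90-4 and 5.95 and 0.746 TPM in H9. LHX1 over both entries was at only 0.517 and 0.381 TPM in WTC11, against 13.3 and 8.54 TPM in IMR90-4 and 5.76 and 1.23 TPM in H9. EVX1 was at 9.48 and 8.45 TPM in WTC11, 4.00 and 6.43 TPM in IMR90-4 and 0.600 and 0.158 TPM in H9. IMR90-4 EVX1 was the one case of a lower value in the high purity library.

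High purity libraries held the higher value for 6 of 6 genes in H9, 5 of 6 in IMR90-4 and 6 of 6 in WTC11 at this stage. Each direction compares 1 library per class, and the share of all genes with either direction was not counted. LHX1 under its own entry rested on 6 and 9 reads in high and low purity WTC11, and EVX1 on 39 and 9 reads in H9. Over the lines 0 of 6 genes were called by edgeR, as were 0% of all genes tested; MIXL1 alone had an unadjusted p under 0.05, and DESeq2 and limma also called 0 of the 6. The edgeR log2 differences ran from 0.26 (EVX1) to 1.54 (MIXL1; edgeR adjusted p = 0.599). Without H9 the value for MIXL1 was 0.57, for EOMES 0.27 in place of 1.41, and for EVX1 -0.32. The low purity H9 library of day 3 also had an endoderm marker sum of 5.62 TPM against 37.0 TPM in high purity H9, and pluripotency marker sums were 113 and 144 TPM; their part in its streak factor levels was not tested.

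The EOMES level on day 4 or 5 had no common direction in the 3 lines. EOMES was at 14.8 and 0.631 TPM in high and low purity H9 on day 5, at 24.3 and 22.9 TPM in WTC11 on day 4, and at 8.68 and 19.3 TPM in IMR90-4 on day 5. In IMR90-4 the high purity library was therefore the lower one. As a share of the level on day 2 or 3, EOMES was at 27.1% and 23.8% in H9, 33.9% and 42.0% in WTC11 and 6.40% and 17.0% in IMR90-4. The EOMES ratio of 8.34 between the WTC11 wells on day 4 stood beside a ratio of 1.06 between the RNA-only WTC11 libraries of the same day; no test was run between the experiments, which differ in library kit and, for the high purity differentiation, in passage (52 and 81; low purity was at 69 in both). The high purity share of the day 2 level was 32.8% in the wells and 33.9% in the RNA-only library. The low purity share was 4.42% in the wells and 42.0% in the library. The experiments thus differed in the low purity share. Cardiomyocyte marker sums were 10.6 and 3.19 TPM in the high and low purity RNA-only WTC11 libraries of day 4. In the wells they were 27.0 to 42.6 and 597 to 681 TPM. Pluripotency marker sums were 142 and 333 TPM in the libraries, against 289 to 371 and 154 to 170 TPM in the wells. The part of these markers in the EOMES levels was not tested. In IMR90-4 the endoderm marker sum on day 5 was 65.9 TPM in the high and 149 TPM in the low purity library, in the same order as EOMES.

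TBXT was at 7.59 and 1.58 TPM in high and low purity WTC11 on day 4, 3.59% and 1.57% of the day 2 level, in the same order as in the wells. In IMR90-4 the order was the opposite, at 0.298 and 0.793 TPM on day 5, and H9 was at 0.288 and 0.407 TPM. MIXL1 had 1.16% and 1.62% of its level left in WTC11, 2.51% and 5.86% in IMR90-4 and 4.97% and 18.0% in H9. The share was larger in the low purity library of each line. In low purity H9, however, MIXL1 was at 1.10 TPM on day 0, 5.98 TPM on day 3 and 1.08 TPM on day 5. The 18.0% there is thus no more than the level before induction, set against a low peak. GSC was at 5.70 and 2.59 TPM in WTC11 on day 4, and on day 6 at 1.07 and 2.84 TPM with the order turned. At this stage 5 of 6 genes were higher in high purity H9, 0 of 6 in IMR90-4 and 5 of 6 in WTC11. These directions compare 1 library per class in each line, and the share of all genes with either direction was not counted. In WTC11 the high to low ratio was only 1.06 for both EOMES and MIXL1. Few reads stood behind GSC (20 and 2), LHX1 (14 and 3) and EVX1 (34 and 4) in H9, and behind GSC in IMR90-4 (17 and 19). With edgeR 0 of 6 genes were called, 0 had an unadjusted p under 0.05, and DESeq2 and limma called 0 as well. Without H9 the log2 difference turned to -0.64 for EOMES, -0.33 for MIXL1, -0.03 for LHX1 and -0.50 for EVX1, and without WTC11 it turned to -1.08 for TBXT. The difference between the classes in the change from the second to the third stage was called by edgeR for 0 of 6 genes (0% of all genes), and 0 had an unadjusted p under 0.05.

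LHX1 was higher on day 4 than on day 2 in RNA-only WTC11 too, there in both classes. Over both entries it went from 0.517 to 2.88 TPM in the high and from 0.381 to 1.66 TPM in the low purity differentiation, or to 556% and 435% of the day 2 level. In H9 it was at 38.4% and 45.2% of the day 3 level on day 5, and in IMR90-4 at 6.82% and 19.7%. On day 6 or 7, 5 of 6 genes were higher in the high purity library in each of the 3 lines. EVX1, EOMES, MIXL1 and LHX1 under its own entry were so in all 3. In H9 the LHX1 entry rested on 3 and 2 reads, and both entries together had the opposite order (0.403 and 0.599 TPM). These directions compare 1 library per class, and the share of all genes with either direction was not counted. EVX1 stood at 0.907 and 0.286 TPM in high and low purity WTC11 and at 1.22 and 0.549 TPM in IMR90-4. In H9 it held 19 reads and 1 read. The difference was in the same direction as in the wells of day 6 but was not called (edgeR log2 1.84, adjusted p = 0.386), and 0 of the 6 genes, as 0% of all genes, were called at this stage by edgeR; DESeq2 and limma called 0 of the 6 too.

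**Figure D5:**
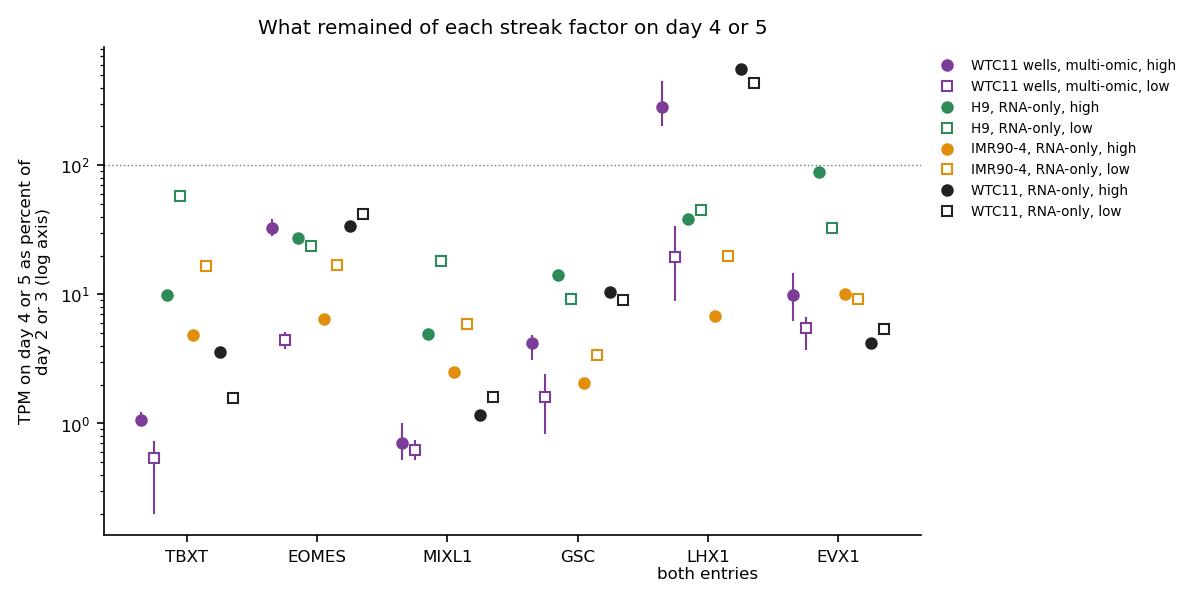
TPM on day 4 (WTC11) or day 5 (H9, IMR90-4) as a percent of the level on day 2 or 3, on a log axis, with LHX1 over both entries; filled circles are high and open squares low purity, vertical lines span the 4 multi-omic wells, and the dotted line marks 100%. EOMES spans 4.42% to 42.0%, MIXL1 is at 0.627% and 0.701% in the multi-omic wells, and LHX1 lies above the dotted line in the high purity wells and in both RNA-only WTC11 differentiations.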

How the data were processed

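The authors deposited, for each experiment, a table of read counts per gene and a table of TPM (transcript abundance scaled by gene length and to a fixed library total). Per the submitters' processing notes the tools include STAR 2.5.3a and featureCounts 2.0.3, and the build is hg38; the annotation, the strand setting and the TPM formula are not given in the sources used here. Gene lengths solved from the RNA-only counts and TPM gave whole reads for 100% of the deposited multi-omic TPM values of 37194 genes (tolerance 0.05 reads). The multi-omic count columns were displaced against the TPM columns: for 0 of 56 did reads and TPM agree under 1 name, and for 50 they agreed under another. The TPM names were used. All 24 RNA-only count columns matched, and broken lines of 6 genes, none of them a streak factor, were left out.

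Multi-omic TPM values were scaled with TMM factors (edgeR 4.0.16), filtered at 1 TPM in 3 libraries, and log2(TPM + 1) was fitted with limma 3.58.1 in R 4.3.3 with 16 group means and 40 residual degrees of freedom. RNA-only counts were fitted with edgeR's quasi-likelihood test with TMM and filterByExpr, using a mean for each of 12 line-stage pairs and 1 class term per stage (4 in all; 8 residual degrees of freedom). The line thus pairs the classes. P-values were adjusted by Benjamini-Hochberg over all genes tested, and a gene was called when its adjusted p was below 0.05 and its log2 fold change was 1 or more in size. Both fits were also run on simulated counts without day or line effects, with changes placed only in well expressed genes. Those runs do not cover genes with few reads, and no result here rests on them.

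The genes, the lists and the rules for naming genes were chosen with earlier results of these data known. Named beside the 6 factors were the 3 genes most correlated with each over the 16 group means, among genes with a group mean of at least 10 TPM, and up to 4 genes of each list called on day 2 or day 4. Alternatives covered scaling, pseudocount, filters, DESeq2 1.42.0, edgeR on recovered reads, the count table under its own names, replicate or line blocks, and leaving out each library or line. The sum of the 2 LHX1 entries was added after the data were seen. Day 10, with 1 high purity library, was not tested.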

Additional observations from a re-analysis of the deposited data

Results flagged for a closer look

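LHX1 in the high purity wells of day 4 had a highest well (3.69 TPM, well 3) far from the other 3, by Dixon's test at the 95% level. Of the 31 groups of 4 or more wells tested in this way for the 6 genes this was the one exceeding the limit, and chance alone flags about 1 in 20. Without this well the day 4 difference was 1.34 in place of 1.51 on the log2 scale.

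The change from day 2 to day 4 differed between the high and the low purity differentiation for EOMES (log2 2.73), LHX1 (1.56) and GSC (1.01), by limma's test of the difference itself. Each differentiation is 1 culture, so that the test compares the spread between wells.

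EOMES on day 5 was 2.22-fold higher in the low than in the high purity IMR90-4 library, while in H9 it was higher in the high purity library. With 1 library per class and line, this difference was not tested.

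Day 10, which has 1 high purity library and entered no comparison, still showed 3 of the genes. EOMES reached 0.561 TPM, from 7 reads, in low purity well 2. MIXL1 measured 3.67 TPM and EVX1 1.53 TPM in the high purity library (well 2), against at most 2.43 and 0.834 TPM in the 4 low purity wells.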

How the results depend on the processing

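Of 953 fold changes of the 6 genes by setting, 894 kept their direction and side of the threshold, 30 lost and 5 gained a call, and 24 reversed; of the counts of called genes by setting, 248 stayed within 1.5 times the main count and 25 did not. Reversals at day 2 were small differences: GSC (main -0.03) was at 0.0056 with edgeR on recovered reads and ranged from -0.16 to 0.10 with 1 well left out, LHX1 (main -0.05) was at 0.16 with its entries summed and -0.10 to 0.0404 with 1 well left out, and EVX1 (main -0.02) ranged from -0.0656 to 0.0243. The change of MIXL1 between the classes from day 2 to day 4 ranged from -0.12 to 0.13. The multi-omic count table was also used under its own column names, which do not match the TPM table. Day 2 then gave GSC 2.07, LHX1 5.37 and EVX1 1.06 with 2 genes called, and day 4 gave EOMES 0.05 with 0 genes called. The matched count columns named day 2 held the reads of TPM columns named day 4, or day 6 for low purity well 4. Count columns named day 4 held those of TPM columns named day 6 or day 8. The day 4 results rest on the names of the TPM table.

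Counts of called genes also moved with the pseudocount of 0.1 (day 6: 3, day 13: 1, day 16: 2, low purity day 4 to 6: 5) and with edgeR on recovered reads (day 6: 2, day 8: 2, day 13: 1, day 16: 3, low purity day 4 to 6: 5). All genes called rose too under these 2 settings. On day 6 they went from 2259 to 3894 with the pseudocount of 0.1 and to 3852 with edgeR. For low purity day 4 to 6 they went from 1697 to 3025 and 2887. Of the 6 genes, day 13 gave 1 with no filter, and 0 to 1 with 1 well left out. Day 6 gave 2 with LHX1 entries summed. Well numbers did not pair the samples (24 correlations of deviations, from -0.016 to 0.033), and with the replicate block day 13 gave 1 called gene and no other count moved.

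In the RNA-only experiment the count for the second to the third stage was 2 to 5 with a line left out, and for the third to the fourth stage it was 0 to 5, with DESeq2 4, with limma 1 and with no replicate block 1. EVX1 at the second stage (main 0.26) was -0.0137 with limma, -0.17 with no replicate block and -0.32 to 0.88 with a line left out. At the third stage TBXT (main 0.23) was -0.0395 with DESeq2 and -1.08 to 1.04 with a line left out, EOMES -0.64 to 2.05, MIXL1 -0.33 to 0.83, LHX1 -0.0324 to 1.66 and EVX1 -0.50 to 1.12. Causes were not tested. All genes called on day 4 numbered 2012, against 3458 with the pseudocount of 0.1 and 3672 with edgeR on recovered reads; on day 2, 1365 against 2712 and 2676. DESeq2 called 79, 51 and 205 genes between the classes at stages 2, 3 and 4, where edgeR called 0. Depth limits LHX1, EVX1-AS and late TBXT and GSC, which rest on few reads per well.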
